A study of Mus musculus with 6 samples.

Results

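Nephron progenitor regulators are the genes that set up and hold the pool of mesenchymal cells from which all nephrons of the kidney are made. The genes listed were Six2, Cited1, Eya1, Osr1, Sall1, Wt1, Pax2, Meox1 and Crym, 9 in all. They were chosen by name, with earlier results of these data known. Every probe set that the platform annotation gives to one of them alone was taken, which gave 11 of the 45101 probe sets on the array, for 8 of the 9 genes. Eya1 has 3 probe sets, Sall1 has 2 and the other 6 genes have 1 each. For Pax2, a paired-box regulator of both the mesenchyme and the ureteric bud, the annotation gave none, and its level was not analysed here. All 11 probe sets passed the filter on low signal.

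The samples were mouse embryonic kidneys at embryonic day E13.5, 3 of genotype Fz4-/- and 3 of genotype Fz4+/+. They were drawn from 3 litters that each held both genotypes, 1 sample apiece. Fz4, encoded by Fzd4, is a cell-surface receptor of the frizzled family that binds Wnt proteins and Norrin. Neither the strain nor the design of the Fz4 allele is given in the sources used here, and the labels leave unsaid how many embryos went into a sample. The p-values thus reflect only how these samples vary. Expression was read on Affymetrix MOE430.2 arrays and is given as RMA values, a log2 scale on which a difference of 1 is a doubling; RMA compresses differences near background. The level of a probe set is compared between samples, and where 1 probe set is subtracted from another within an array, what is compared is again how the result differs between samples.

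At this stage the ureteric bud branches into the metanephric mesenchyme, and the mesenchyme condenses into a cap around each bud tip. Cap cells either renew themselves or, on a Wnt signal from the bud, turn into epithelium and form a nephron. Six2 is the transcription factor that keeps cap cells undifferentiated, Cited1 is a transcriptional coactivator restricted to the least committed cap cells, and Eya1 is a phosphatase and coactivator that partners Six2 and its relatives. Osr1, Wt1, Sall1 and Pax2 act early, in specifying the mesenchyme or in its response to the bud. In a kidney sample of mixed cells, fewer progenitor cells and less RNA per progenitor cell cannot be told apart.

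The labels were checked on Fzd4. Its 2 probe sets above the filter read between 3.58 and 6.22 in the Fz4-/- samples and between 7.53 and 11.21 in the Fz4+/+ samples, without overlap on either, and its other probe set lay below the filter. Median log2 values of the arrays ran from 6.62 to 6.74. Precision is limited by the number of arrays. On the first principal component, with 70.8% of the variance, both samples of litter 3 stood apart at 48.7 and 70.1, with the others between -48.9 and -0.098. On the second, with 10.4%, the Fz4+/+ sample of litter 2 lay apart at -32.7, with the others between -10.5 and 20.1. Against the genotype alone, limma (Benjamini-Hochberg adjustment over all probe sets, threshold 0.05) called 0 of 27022 tested probe sets, Fzd4 included, with 239 at an unadjusted p under 0.05. Without moderation of the variances it also called 0, with 415 at an unadjusted p under 0.05, and with array weights it called 2, with 6084. Leaving out each sample in turn gave 0 calls, with from 124 probe sets (litter 2 Fz4-/- sample left out) to 1725 (litter 3 Fz4+/+ sample left out) at an unadjusted p under 0.05.

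Cited1 and Six2 carry the contrast described first, so the 250 bases before an annotated start of each are shown, from the RefSeq promoter table on the GRCm38.p6 build. The table held 10 such windows for 4 of the 9 genes. Capitals mark matches to any of 4 motifs sought on both strands: CTTTGA, the core bound by the TCF and LEF partners of beta-catenin; TCAGGTTTC, the MEF3 site bound by Six2-type homeodomain proteins; TATAAA, the TATA box; and CCAAT, the CCAAT box. The Six2 window is chr17:85688255-85688504 on the minus strand, and the Cited1 window, at the most upstream of its 3 starts, is chrX:102252182-102252431 on the minus strand.
Six2: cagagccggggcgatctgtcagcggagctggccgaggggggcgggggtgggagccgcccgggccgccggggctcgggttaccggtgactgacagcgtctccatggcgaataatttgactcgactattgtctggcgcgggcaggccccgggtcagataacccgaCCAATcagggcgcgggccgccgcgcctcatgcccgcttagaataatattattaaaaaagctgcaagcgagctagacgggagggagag
Cited1: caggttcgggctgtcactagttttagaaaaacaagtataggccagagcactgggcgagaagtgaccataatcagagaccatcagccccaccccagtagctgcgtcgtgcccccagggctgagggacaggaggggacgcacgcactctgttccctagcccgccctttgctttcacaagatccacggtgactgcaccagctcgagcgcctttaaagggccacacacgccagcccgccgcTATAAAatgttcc
The Six2 window had a single match, a CCAAT box that begins 87 bases before the start, and the Cited1 window had a single match, a TATA box that begins 13 bases before it. CCAAT in either orientation was in 33.8% of all 32817 promoter windows and TATAAA in 12.4%. Neither CTTTGA, found in 13.8% of all windows, nor TCAGGTTTC, found in 0.387%, was matched in the windows shown, which says only that these letters are not there. GC content was 64.8% for Six2 and 58% for Cited1, with 26 and 13 CpG dinucleotides.

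Cited1 (probe set 1449031_at) was the member with the clearest separation of the genotypes. Its RMA values in litters 1 to 3 were 9.45, 9.56 and 9.41 in the Fz4-/- samples and 9.78, 9.78 and 9.85 in the Fz4+/+ samples. Every Fz4-/- sample was below every Fz4+/+ sample, and the Fz4+/+ samples lay within a span narrower than the gap between the genotypes. The means were 9.47 ± 0.07 and 9.80 ± 0.04 (SD, n = 3). The difference, Fz4-/- minus Fz4+/+, was -0.33 ± 0.10 (SE) on the log2 scale, with a 95% interval from -0.57 to -0.09, or -20.4% on a linear scale with an interval from -32.5% to -6.06%. Within litters 1 to 3 it was -0.33, -0.23 and -0.43. limma's unadjusted p was 0.0149, and 43 of the 27022 tested probe sets had one as small, but its adjusted p was 0.999988, so Cited1 did not pass the threshold. The exact permutation p was 0.1, the smallest that 3 samples against 3 can give, two-sided. With the litter as a block, which pairs the samples, the unadjusted p was 0.0224 and the adjusted p 0.999986. In that fit 283 of the 27022 tested probe sets had an unadjusted p as small. Leaving out each sample in turn kept the difference between -0.37 and -0.30, with unadjusted p between 0.0297 and 0.0574, and without both samples of litter 3 it was -0.28 at an unadjusted p of 0.0702.

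Six2 (probe set 1427436_at) did not separate the genotypes in the same way. Its Fz4-/- values (litters 1 to 3) were 7.90, 8.02 and 7.76, and its Fz4+/+ values were 7.88, 8.09 and 8.03. These ranges overlap, and the sample with the lowest value was the Fz4-/- one of litter 3. The difference was -0.10 ± 0.12 (SE), with a 95% interval from -0.39 to 0.19 and an unadjusted p of 0.425 by limma (adjusted p 0.999988). The interval thus covers changes from -23.9% to 14.1%, so a difference of the size seen for Cited1 could not be told from none on this probe set. Within litters 1 to 3 the differences were 0.02, -0.06 and -0.26, and leaving out each sample in turn gave -0.17 to -0.04. Six2 varied little over the arrays as a whole, with an SD of 0.12 over the 6 arrays against a median of 0.21 over all tested probe sets.

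Within each array the value of Cited1 minus that of Six2 was 1.56, 1.53 and 1.65 in the Fz4-/- samples of litters 1 to 3 and 1.90, 1.69 and 1.82 in the Fz4+/+ samples. These values were lower in Fz4-/- by -0.35, -0.16 and -0.17 in litters 1 to 3. Cited1 alone already kept the genotypes apart and Six2 varied little, so this is no separate support for the difference of Cited1. Taken against Six2 in the same way, the brightest Eya1 probe set differed by 0.01, -0.34 and -0.14 in litters 1 to 3 and Wt1 by 0.10, 0.10 and 0.26. Such a difference within an array shows unequal change of a pair of probe sets and was not tested.

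**Figure D1:**
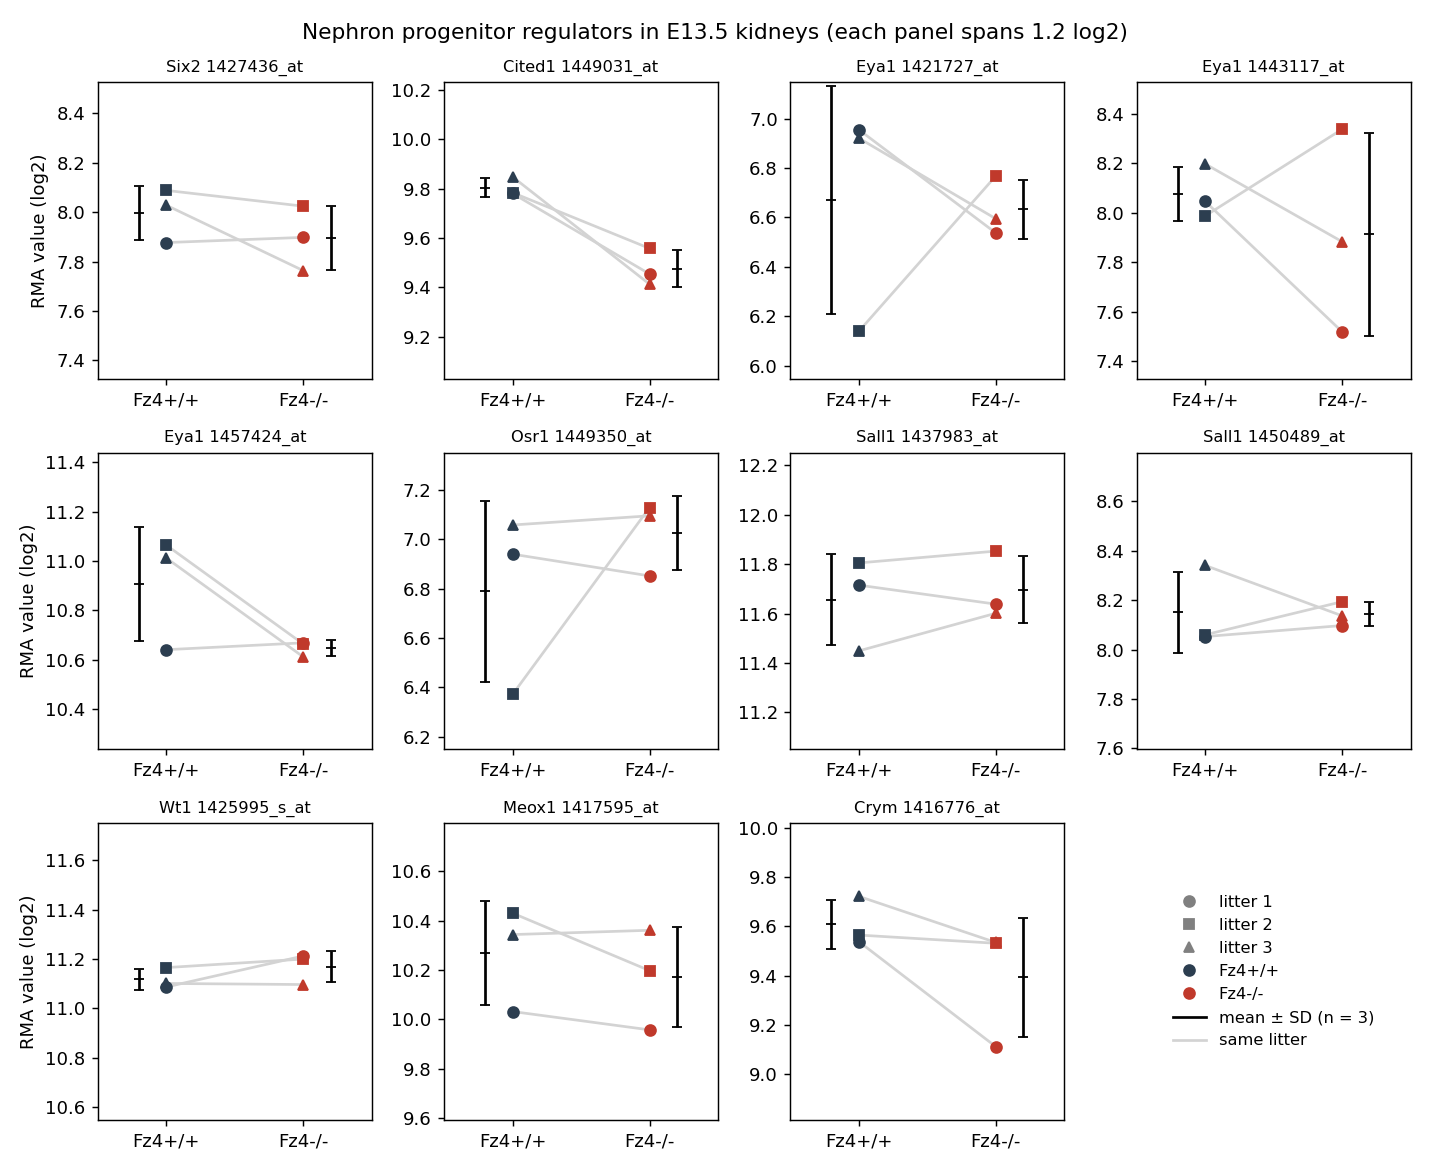
RMA values (log2) of the 11 member probe sets, 1 panel each, with Fz4+/+ samples in blue and Fz4-/- samples in red, markers for the litter, grey lines joining samples of a litter and bars for the mean ± SD (n = 3). Cited1 lies at 9.78 to 9.85 in Fz4+/+ and 9.41 to 9.56 in Fz4-/-, whereas the Six2 samples of the genotypes overlap.

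Eya1 was read by 3 probe sets, which did not behave alike. On the brightest, 1457424_at, Fz4-/- values (litters 1 to 3) were 10.67, 10.66 and 10.61, and Fz4+/+ values were 10.64, 11.06 and 11.01. The Fz4+/+ sample of litter 1 fell among the Fz4-/- samples, and those of litters 2 and 3 stood above them. The difference was -0.26 ± 0.14 (SE), with a 95% interval from -0.60 to 0.09, an unadjusted p of 0.117 and an adjusted p of 0.999988 by limma. It came to 0.03 in litter 1 and -0.40 in each of litters 2 and 3. With the Fz4+/+ sample of litter 1 left out it was -0.39, at an unadjusted p of 0.0181 and an adjusted p of 0.999953. That was the largest of the differences with each sample left out in turn. The smallest was -0.18, at an unadjusted p of 0.286 by limma, with the Fz4+/+ sample of litter 2 left out.

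The other Eya1 probe sets gave smaller differences with wide errors. On 1443117_at the values were 7.52, 8.34 and 7.88 in Fz4-/- against 8.05, 7.99 and 8.20 in Fz4+/+, which differ by -0.16 ± 0.22 (SE). The Fz4-/- samples of litters 1 and 2 were the lowest and the highest of all 6. On 1421727_at they were 6.54, 6.77 and 6.59 against 6.95, 6.14 and 6.92, which differ by -0.04 ± 0.24 (SE). Here the Fz4+/+ sample of litter 2 was the lowest, whereas on the brightest probe set it was the highest. Over the 6 arrays the Pearson correlation of 1457424_at was 0.24 with 1443117_at and -0.38 with 1421727_at, and that of the last 2 with each other was 0.41. All 3 differences were below 0, but in litter 2 the brightest probe set was lower in Fz4-/- by -0.40 while the others were higher, by 0.35 and 0.63. The mean of the 3 probe sets differed by -0.15 ± 0.14 (SE).

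Markers of nerve and chromaffin cells were read beside the brightest Eya1 probe set. The mean of the 4 measured genes of that list (Chga, Chgb, Stmn2 and Isl1) was 6.40, 6.34 and 7.06 in the Fz4-/- samples of litters 1 to 3 and 6.49, 8.04 and 8.30 in the Fz4+/+ samples. Th, also on that list, lay below the filter. The Fz4+/+ samples of litters 2 and 3, in which Eya1 was high, were also the highest for this list. Chga, which encodes a chromaffin granule protein, read 7.10 and 7.36 in those samples. In the other 4 it read between 5.71 and 6.04, near the filter. Its correlation with this Eya1 probe set over the 6 arrays was 0.97, which rests on the samples with high Chga. Among 5178 genes searched by that correlation Chga was in the top 5, so the value is a selected one. Chgb read 8.75 and 9.36 against 5.79 to 6.88, and Isl1 7.42 and 7.53 against 4.70 to 6.92. Stmn2 did not set those samples apart, at 8.91 and 8.94 against 6.84 to 8.99. Within litters 1 to 3 the nerve and chromaffin mean differed by -0.09, -1.70 and -1.24, and Cited1 by -0.33, -0.23 and -0.43. The part of these cells in the Eya1 and Cited1 differences was not tested.

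**Figure D2:**
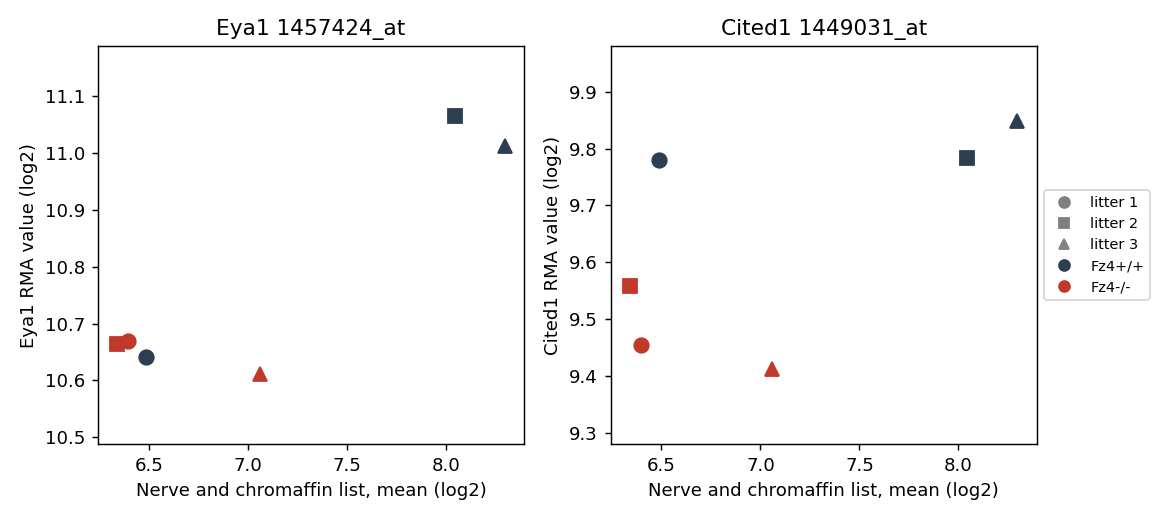
Values (log2) of the brightest Eya1 probe set (left) and of Cited1 (right) in each of the 6 samples against the mean log2 value of 4 nerve and chromaffin genes. Eya1 is high, at 11.06 and 11.01, in the samples with the highest list means, 8.04 and 8.30. Cited1 reads 9.78, 9.78 and 9.85 in the Fz4+/+ samples of litters 1 to 3, with list means of 6.49, 8.04 and 8.30.

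Of the early mesenchyme regulators, Osr1, Sall1 and Wt1 showed no separation of the genotypes. Osr1 (1449350_at), a zinc finger factor among the first marks of the kidney lineage and also expressed in stroma, read 6.85, 7.13 and 7.10 in Fz4-/- (litters 1 to 3) and 6.94, 6.37 and 7.06 in Fz4+/+. The Fz4+/+ sample of litter 2 was far below the other 5. The difference was 0.24 ± 0.21 (SE), with an interval from -0.27 to 0.74, and 0.03 without that sample. In that sample the mean of 8 skeletal muscle genes was 8.18, against 6.18 to 7.54 in the others, and the part of this in the Osr1 value was not tested.

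Sall1, a zinc finger factor that the mesenchyme needs to draw in the ureteric bud, differed between the genotypes by less than its SE on each of its probe sets. On 1437983_at the values were 11.64, 11.85 and 11.60 in Fz4-/- against 11.72, 11.81 and 11.45 in Fz4+/+, which differ by 0.04 ± 0.14 (SE). The samples of litter 2 were the highest and those of litter 3 the lowest in either genotype. On 1450489_at they were 8.10, 8.19 and 8.14 against 8.05, 8.06 and 8.34, which differ by -0.01 ± 0.12 (SE). Here litter 3 held the highest sample, and the Pearson correlation of the 2 probe sets over the 6 arrays was -0.60. The 95% intervals ran from -0.30 to 0.38 and from -0.30 to 0.29.

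Wt1 (1425995_s_at), which encodes a zinc finger factor of the mesenchyme, the cap and the podocytes, was the steadiest member. It read 11.21, 11.20 and 11.10 in the Fz4-/- samples and 11.09, 11.17 and 11.10 in the Fz4+/+ samples, so all 6 lay within 0.13. The difference was 0.05 ± 0.10 (SE), with a 95% interval from -0.18 to 0.29, or -11.9% to 22.0% on a linear scale. The mean of 3 measured podocyte genes ran from 8.43 to 8.78 in Fz4-/- and from 7.92 to 8.41 in Fz4+/+ samples.

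Meox1 and Crym are markers of the cap mesenchyme. Crym (1416776_at), which encodes a thyroid hormone binding protein, read 9.11, 9.53 and 9.53 in the Fz4-/- samples of litters 1 to 3 and 9.54, 9.56 and 9.72 in the Fz4+/+ samples. The genotypes did not overlap, but the gap between the closest samples of each was under 0.01, and the Fz4-/- sample of litter 1 stood apart from all others. The difference was -0.22 ± 0.15 (SE), with a 95% interval from -0.59 to 0.16, an unadjusted p of 0.206 by limma and an exact permutation p of 0.1. It was -0.43, -0.03 and -0.19 in litters 1 to 3, and -0.08 with the Fz4-/- sample of litter 1 left out. Meox1 (1417595_at), a homeobox gene also known from somites, read 9.96, 10.20 and 10.36 against 10.03, 10.43 and 10.34. Its lowest samples were both those of litter 1, and its difference was -0.10 ± 0.16 (SE), with a 95% interval from -0.49 to 0.30.

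Read together, 8 of the 11 member probe sets were lower in Fz4-/- kidneys and 3 higher, where 38.4% of all tested probe sets were lower (46.2% after quantile normalisation, with the members still at 8). Counted by gene on the brightest probe set, 5 of 8 were lower and 3 higher. The median difference of the members was -0.10, against 0.03 over all tested probe sets. With the Fz4-/- sample of litter 1 left out, the count of lower members was 4 of 11. No member passed the adjusted threshold, and 1 of 11, Cited1, had an unadjusted p under 0.05, against 0.884% of tested probe sets. Values did not overlap for 2 of 11, Cited1 and Crym, against 3.64% of tested probe sets. The same 2 were lower in all 3 litters, against 7.28%, and no member was higher in all 3, against 14.2%. With the litter as a block 1 member, again Cited1, had an unadjusted p under 0.05, against 3.11%. These counts describe 11 probe sets of 8 genes, of which 5 share a gene, and the list was not tested as a set.

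**Figure D3:**
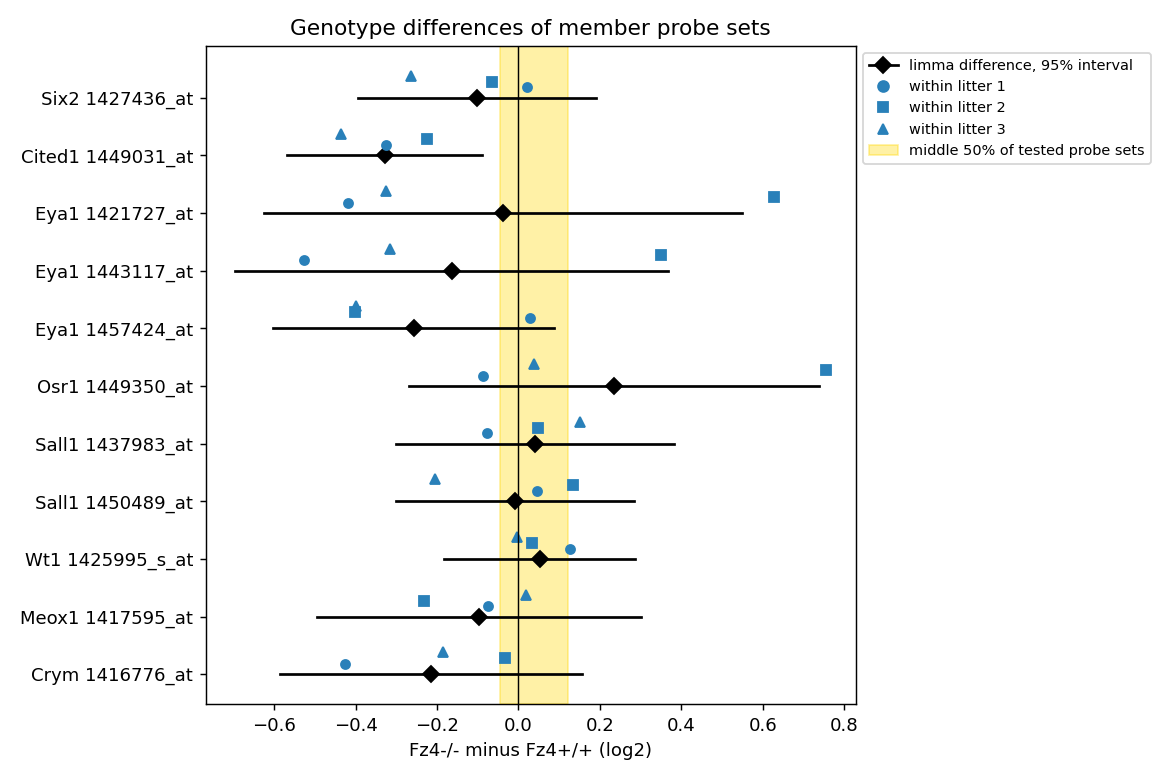
Fz4-/- minus Fz4+/+ (log2) for the 11 member probe sets. Black diamonds and lines are limma's difference and its 95% interval, blue markers above them the differences within litters 1 to 3, and the yellow band the middle 50% of all tested probe sets, from -0.05 to 0.12. The unadjusted interval of Cited1, from -0.57 to -0.09, is the only one of the 11 that leaves out 0.

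How the members varied over the samples was then split between litter, genotype and the remainder, as shares of the sum of squares over the 6 arrays. There are more litters than genotypes, so litter takes the larger share on average even where neither has an effect. The shares describe the spread and do not test it. Litter took a median of 45.6% among the members, against 65.9% over all tested probe sets, and more than genotype in 9 of 11, against 88.2%. The exceptions were Cited1, with 1.76% for litter and 92.0% for genotype, and the brightest Eya1 probe set, with 22.8% and 47.8%. Litter took 85.5% for Sall1 on 1437983_at and 83.7% for Meox1, the 2 members over 50%, against 67.8% of tested probe sets. Genotype took 21.4% for Six2, where litter took 49.3%. On the other Sall1 probe set genotype took 0.179%, with 47.7% for litter.

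Whether litters differed was tested with limma's moderated F test beside genotype. It called 0 of 27022 probe sets at an adjusted p under 0.05 and 0 of the 11 members. At an unadjusted p under 0.05 there were 6225, or 23.0%, and 0 members. Among the members Meox1 came nearest, with litter means of 10.00, 10.31 and 10.35 in litters 1 to 3, an unadjusted p of 0.0690 and an adjusted p of 0.242. For Cited1 the litter means were 9.62, 9.67 and 9.63, with an unadjusted p of 0.894. Leaving out the Fz4-/- sample of litter 2 brought the F test to 1506 calls, leaving out the Fz4+/+ sample of that litter to 326, and a variance prior that follows intensity to 2077, so the count over all probe sets depends on these choices.

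**Figure D4:**
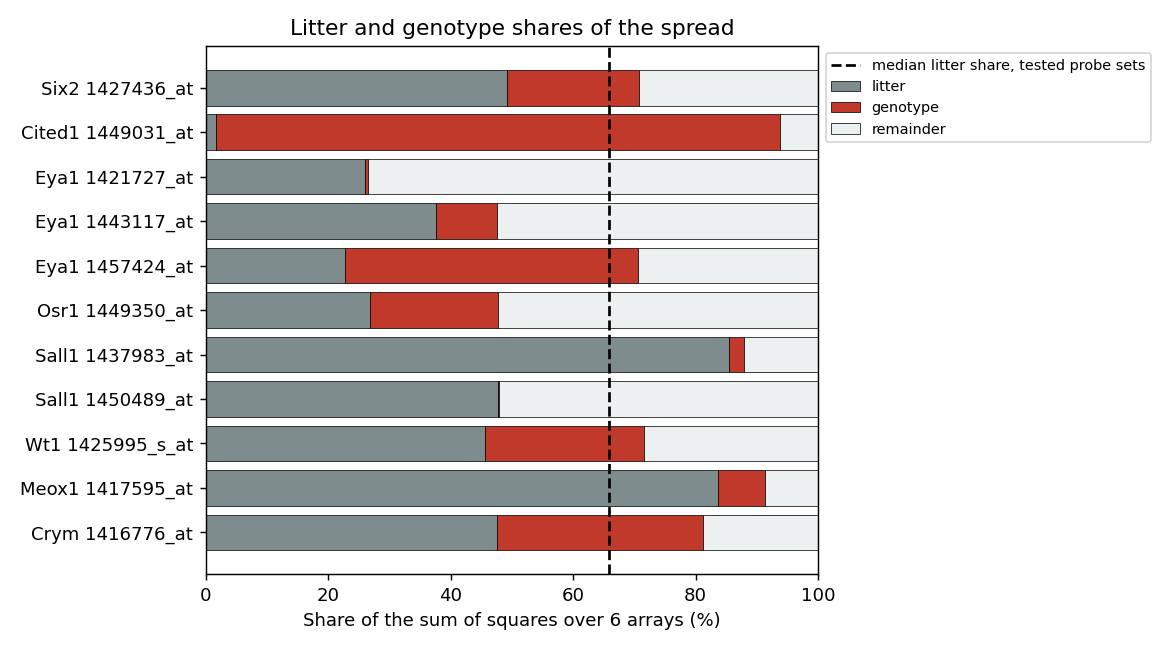
Shares (%) of the sum of squares over 6 arrays taken by litter (grey), genotype (red) and the remainder (white) for each member probe set, with the median litter share of all tested probe sets, 65.9%, as a dashed line. Genotype takes 92.0% for Cited1, and litter takes 85.5% and 83.7% for Sall1 1437983_at and Meox1.

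The wider progenitor programme was read from 24 further genes of the cap and the metanephric mesenchyme, of which 22 were measured on their brightest probe set. In Fz4-/- kidneys 14 of the 22 were lower and 8 higher, where 38.4% of all tested probe sets were lower. After quantile normalisation 16 of the 22 were lower, against 46.2%. The median difference was -0.05, and none of the 22 passed the threshold or had an unadjusted p under 0.05 by limma. The largest differences were those of Pla2g7, Traf1, Dpf3 and Gdnf. Pla2g7, which encodes a secreted phospholipase, read 7.98, 9.39 and 9.24 in the Fz4-/- samples of litters 1 to 3 and 8.50, 9.77 and 9.63 in the Fz4+/+ samples. Both samples of litter 1 were far below the rest, so the difference of -0.43 had an SE of 0.50, and 0.09 with the litter as a block (unadjusted p of 0.00725, adjusted p 0.999986). Traf1, an adaptor of TNF receptors, differed by -0.37 ± 0.21 (SE) and was lower in each litter, by -0.38, -0.17 and -0.55. Its unadjusted p was 0.136, and 0.0284 with the litter as a block. Dpf3, a subunit of a chromatin remodeller, differed by -0.26 ± 0.28 (SE). Gdnf, the ligand through which the mesenchyme drives Ret in the bud, had values of 9.67, 9.88 and 9.81 against 9.93, 9.88 and 10.31, which differ by -0.25 ± 0.15 (SE).

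The genes of committed nephron epithelium, into which cap cells pass, lay mostly on the other side of 0. So did those of the ureteric bud, with 9 of 11 higher in Fz4-/- and a median difference of 0.17. Of the 17 committed genes 14 were higher in Fz4-/- and 3 lower, with a median difference of 0.09. Among all tested probe sets 61.6% were higher. None passed the threshold or had an unadjusted p under 0.05 by limma. The largest differences were 0.23 ± 0.16 (SE) for the cadherin gene Cdh6, 0.21 ± 0.15 for Pax8, a paired-box factor of the renal vesicle, 0.21 ± 0.20 for the Notch modifier Lfng and 0.17 ± 0.25 for Osr2. In litter 2 these 4 differed by 0.49, 0.35, 0.70 and 0.78, and the Fz4+/+ sample of that litter had the lowest value of each. With that sample left out, 10 of the 17 genes were higher in Fz4-/-. Ccnd1, picked out after its values were seen, was the single gene of the 17 without overlap, against 3.64% of tested probe sets. It read 12.56 to 12.63 in Fz4-/- and 12.46 to 12.55 in Fz4+/+ samples, with an unadjusted p of 0.303 by limma. Within litters 1 to 3 the mean of the committed list differed between the genotypes by 0.04, 0.27 and -0.07, and that of the other progenitor genes by -0.08, 0.01 and -0.16.

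**Figure D5:**
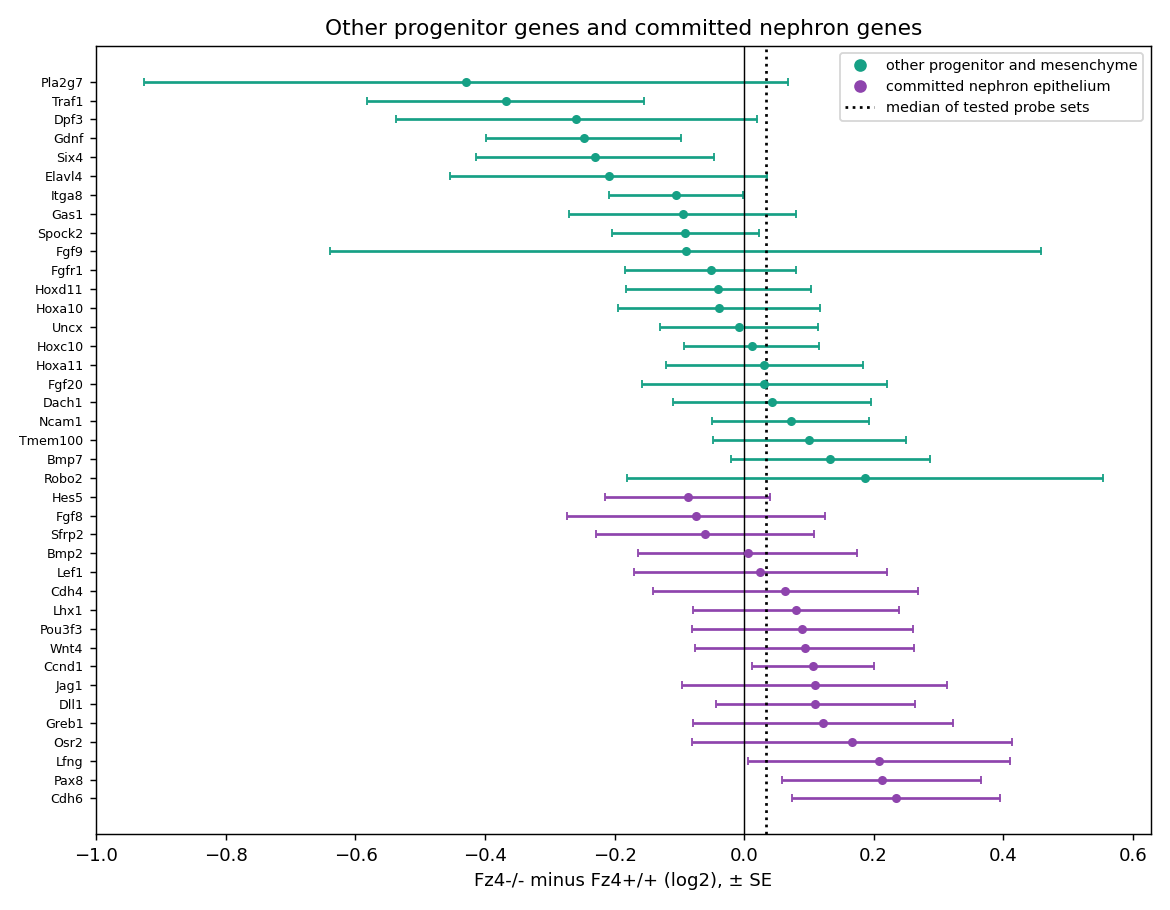
Fz4-/- minus Fz4+/+ (log2, ± SE, 6 arrays) for 22 other progenitor and mesenchyme genes (green) and 17 committed nephron genes (purple), with a dotted line at the median of all tested probe sets, 0.03. Green points lie below 0 for 14 genes and purple points above 0 for 14, and no gene passed the adjusted threshold.

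Markers of other cells in the dissected tissue did not all move alike. The mean of 11 measured ureteric bud genes ran from 9.98 to 10.05 in Fz4-/- and from 9.69 to 10.00 in Fz4+/+ samples. That of 9 stromal genes ran from 10.94 to 11.15 and from 10.80 to 11.13, and that of 6 endothelial genes from 9.35 to 9.43 and from 9.21 to 9.34. Higher in Fz4-/- were 9 of the 11 ureteric bud genes, 6 of the 9 stromal and 4 of the 6 endothelial genes. All 3 measured podocyte genes were higher too, where 61.6% of all tested probe sets were higher. The 8 skeletal muscle genes had a mean of 6.18 to 7.39 in Fz4-/- and 7.42 to 8.18 in Fz4+/+ samples, without overlap. The endothelial mean did not overlap either, nor did that of the 3 podocyte genes (8.43 to 8.78 against 7.92 to 8.41). Both were higher in Fz4-/-, and the closest samples of the genotypes lay near each other for all of these means. All 8 muscle genes were lower in Fz4-/-, against 38.4% of tested probe sets, with 4 of 8 lower in every litter, against 7.28%. Eya1, Meox1 and Six4 are also expressed in muscle precursors, and the part of muscle in their differences was not tested. Within litters 1 to 3 the muscle mean differed by -0.13, -2.00 and -0.16, and Cited1 by -0.33, -0.23 and -0.43. All 5 liver genes were lower in Fz4-/-, and their mean differed by 0.18, -0.35 and -1.88 in litters 1 to 3. Of 5 macrophage genes 4 were lower, and their mean differed by 0.11, -0.10 and -0.48. Litter 3, where liver and macrophage genes differed most, was also the litter with the largest differences of Cited1 and of Six2, which came to -0.26 there. The part of muscle, liver and macrophages in these differences was not tested. The mean of 3 red cell genes differed by 0.46, 0.43 and -0.57, and the single measured gene of the gonad and adrenal cortex list by -0.20, 0.11 and 0.15.

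Genes with patterns most like those of Six2, Cited1 and Eya1 were sought by Pearson correlation over the 6 arrays among 5178 genes that varied at least as much as the median probe set. Among so many genes and so few arrays, high values arise readily, and the arrays share litters. For Cited1 they were Nlrc3 (0.92), Ism1, Slc16a6, Srgn and Sowahb (0.90). Slc16a6, a monocarboxylate transporter gene, read 8.49, 8.70 and 8.64 in the Fz4-/- samples and 9.07, 8.86 and 8.97 in the Fz4+/+ samples. For Six2 they were H2-Aa (0.98), Crip3, Defa31, 4933431E20Rik and Nkx2-9 (0.88), and for the brightest Eya1 probe set Cst6 (0.98), Chga, Nckap1l, Prox1 and Prr29 (0.94). On their brightest probe sets the members other than Osr1 had SDs from 0.06 to 0.20, below that median of 0.21, so they were not among the genes searched. Between members, Six2 correlated with Eya1 at 0.78 and with Cited1 at 0.63, Cited1 with Eya1 at 0.72, and Wt1 with Crym at -0.65.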

How the data were processed

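The deposited table holds RMA output of the authors on a log2 scale, 1 value per probe set and array. RMA is named in the submitters' processing notes without a version, and the array scans were not used here. RMA brings the arrays to nearly equal distributions, so a change in total RNA could not be seen. Names came from the platform annotation, and all 11 member probe sets matched a RefSeq gene of GRCm38.p6 by Entrez number with the same symbol.

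Control probe sets (64) and those with a mean below the 40th percentile, 5.89 log2, were left out of the test, which left 27022. The test was limma 3.58.1 (R 4.3.3), fitted to genotype alone with eBayes moderation, two-sided, with Benjamini-Hochberg adjustment over all tested probe sets and a threshold of 0.05. Single values were compared by exact permutation. The scripts were tested on simulated data. Members, lists and alternatives were chosen with earlier results of these data known.

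Every member probe set was named. So were, in each of the other progenitor and committed lists, the 4 genes with the largest absolute difference, and the 5 genes most like Six2, Cited1 and Eya1. A gene outside the members was read on its brightest probe set. A further gene of the nerve and chromaffin list is not reported here. Replicate numbers in the labels are litter numbers, so they pair the samples, and deviations from the genotype means correlated by 0.577, 0.178 and 0.809 in litters 1, 2 and 3. A fit with litter as a block was an alternative. The others covered the filter, normalisation, variance prior, array weights, litter as a random effect, and samples left out.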

Additional observations from a re-analysis of the deposited data

How the results depend on the processing

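The count of called probe sets for genotype was 0 in the main analysis and 0 under each alternative but array weights, which gave 2, and 0 in every analysis that left out a sample. With the replicate block it was also 0, and the block changed no call of a member. Array weights gave the Fz4-/- sample of litter 2 a weight of 8.81 and turned the differences of Six2 to 0.0873, Eya1 1443117_at to 0.214, Sall1 1450489_at to 0.114 and Meox1 to 0.0843. They moved the difference of the brightest Eya1 probe set from -0.258 to -0.0603 and that of Crym from -0.215 to -0.0487, and left 4 member probe sets and 9 of the other progenitor genes lower. Without litter 3 the differences were 0.105 for Eya1 1421727_at, -0.0145 for Sall1 1437983_at and 0.0894 for Sall1 1450489_at, and 9 of the other progenitor genes were lower. With samples left out in turn, the count of lower members ran from 4 to 9 and that of higher committed nephron genes from 10 (Fz4+/+ sample of litter 2 left out) to 17. The difference ran from -0.305 to 0.103 for Eya1 1421727_at, -0.376 to 0.0335 for Eya1 1443117_at, -0.0626 to 0.115 for Sall1 1437983_at, -0.0576 to 0.0865 for Sall1 1450489_at and -0.215 to 0.0107 for Meox1. Cited1, Crym, Six2, Osr1, Wt1 and Eya1 1457424_at kept their direction with each sample left out. The litter test called 3 probe sets with the filter at the 60th percentile, 3 with litter alone and 2077 with an intensity trend, and from 0 to 1506 with samples left out. The causes were not tested. After quantile normalisation the difference in litter 2 was -0.23 for Six2 and -0.33 for Cited1.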
